A study of Mus musculus with 6 samples.

Results

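The 10 genes described here encode the MYC, MAX and MondoA transcription factor network together with the alpha-arrestins TXNIP and ARRDC4. They are Myc, Max, Mxd1, Mxd4, Mxi1, Mnt, Mlx, Mlxip, Txnip and Arrdc4, chosen by gene symbol from the 27179 genes of the B16F10 table, and each symbol matched 1 gene. B16F10 is an established mouse melanoma line, labelled as wild-type skin melanoma. RNA was sequenced from 3 libraries of cells cultured for 6 h with 0.01% ozonated olive oil (OZO) and from 3 libraries of cells cultured for 6 h with 0.01% olive oil (OLO), the precursor oil without ozone. The level analysed is the authors' average over all 6 libraries of log2 CPM, the reads of a gene scaled to the size of its library (counts per 1000000 reads, CPM) on a log2 scale. Each level in CPM is this average taken back from the log2 scale, which is a geometric mean over the libraries. An average over OZO-treated and OLO-treated cells gives neither a difference between the oils nor a spread between libraries, so only levels are given and no test was made. A gene that responded to OZO is represented here by the midpoint of its levels. The libraries of an oil are described in the study as independent experiments.

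MYC and its relatives are basic helix-loop-helix leucine zipper proteins, which bind DNA only as dimers. MYC pairs with MAX to activate genes of growth and ribosome production at sites known as E-boxes, whereas MXD1, MXD4, MXI1 and MNT pair with the same MAX and recruit SIN3 and histone deacetylases to repress such genes. MondoA, the product of Mlxip, pairs with the MAX-like protein MLX and moves to the nucleus when glucose 6-phosphate accumulates. There it activates Txnip and Arrdc4, whose products restrain glucose uptake, so that MLX and MondoA form the nutrient-sensing side of the network. MXD1, MXD4 and MNT can also pair with MLX, which links both sides.

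E-boxes lay in the promoters of several of the network's own genes. RefSeq promoter windows on GRCm38.p6, from 250 bases before to 50 bases after the annotated start, were read for 9 of the 10 genes, with 11 windows because Mxi1 has 3 starts. No window for Myc was read. The canonical E-box CACGTG, which reads the same on both strands, lay in the windows of 5 of the 9 genes, namely Max, Mxd4, Mnt, Mlx and Arrdc4. The same letters lay in 7.15% of all 32851 windows and in 10.1% of the 12021 windows of genes with at least 1 CPM. These are matches of letters and no measure of binding, and windows of 1 gene can overlap.

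The stretches around the boxes are shown because MAX and MLX dimers are known to bind such letters. Capitals mark the box, and each stretch reads 5′ to 3′ on the strand of its gene.

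Max, chr12:76962239-76962276, minus strand, with the box beginning 3 bases before the start: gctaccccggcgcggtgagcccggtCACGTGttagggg

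Mxd4, chr5:34187899-34187954, minus strand, with the box beginning 219 bases before the start: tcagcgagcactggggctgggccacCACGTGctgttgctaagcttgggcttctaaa

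Mnt, chr11:74830776-74830831, plus strand, with the box beginning 123 bases before the start: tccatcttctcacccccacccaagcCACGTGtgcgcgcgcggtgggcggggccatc

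Mlx, chr11:101087225-101087280, plus strand, with the box beginning 40 bases before the start: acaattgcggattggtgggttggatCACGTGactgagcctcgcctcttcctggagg

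Arrdc4, chr7:68749401-68749456, minus strand, with the box beginning 193 bases before the start: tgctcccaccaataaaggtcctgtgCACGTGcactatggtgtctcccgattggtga

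Txnip held no CACGTG in its window but held a pair of imperfect E-boxes. As background, MondoA and MLX are known to act through such pairs, known as carbohydrate response elements. The match of letters shows no binding. The pair began 85 bases before the start, with 5 bases between the boxes. It was found with the boxes CACGNG or CNCGTG, each the reverse complement of the other, a looser pattern that was searched after the stricter pairs had given no match in these genes, so its frequency is a description. A pair of this kind lay in 27 of the 32851 windows (0.0822%), and Txnip was the only one of the 9 genes with it.

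Txnip, chr3:96557847-96557913, plus strand, with capitals for the boxes: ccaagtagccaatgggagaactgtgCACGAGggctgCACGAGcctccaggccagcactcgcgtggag

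With the stricter pairs, a pair of CACGTG boxes 5 bases apart lay in 0 of all windows, and a pair of CANNTG boxes 5 bases apart lay in 252 windows (0.767%) and in 0 of the 11 windows of the network. The degenerate box CANNTG alone, which contains CACGTG, lay in 72.3% of all windows and in the windows of 7 of the 9 genes. The windows of Mxd1 and Mlxip held none of these patterns.

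**Figure D1:**
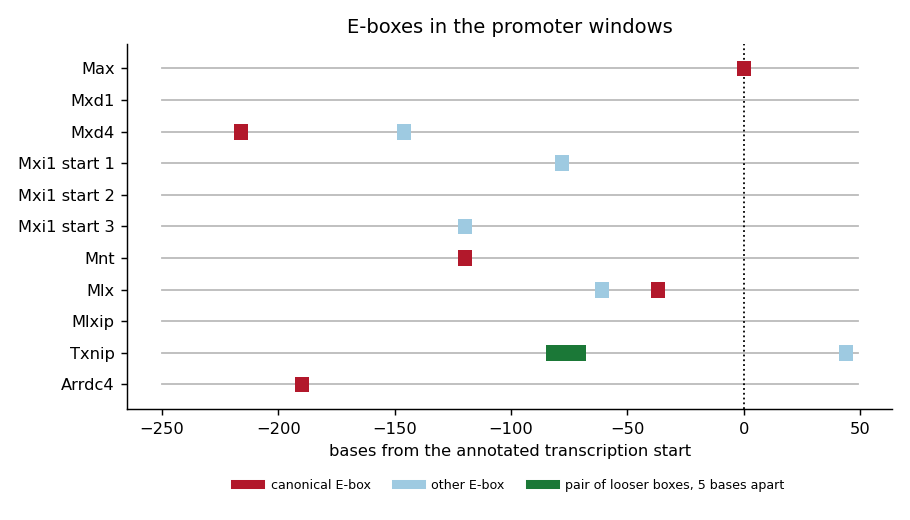
Position of E-boxes in the RefSeq promoter windows of 9 genes, with bases from the annotated transcription start (dotted line) on the horizontal axis and 1 row per window. Red bars, the canonical box, stand in 5 rows (Max, Mxd4, Mnt, Mlx, Arrdc4), pale blue bars are other E-boxes, and the green bar of Txnip is a pair of looser boxes 85 bases before its start.

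All 10 genes were expressed in B16F10 cells. Each averaged at least 1 CPM, as did 11878 of the 27179 genes of the table (43.7%). Their levels ran from 7.75 CPM for Mxd4 to 176 CPM for Txnip, which corresponded to 152 and 3464 reads per library. The depth behind these values was taken from genes without reads, whose shared average gave a geometric mean library size of 19641946 reads, so that 1 CPM stood for 19.6 reads.

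The cells carried the marks of their label. All 7 melanocyte markers exceeded 100 CPM, from Sox10, a neural crest transcription factor, at 109 CPM to Dct, an enzyme of melanin synthesis, at 7052 CPM. The 5 fibroblast markers summed to 6.50 CPM, the 3 keratinocyte markers to 0.0927 CPM, the 3 endothelial markers to 1.36 CPM, and the 4 leukocyte markers to 5.63 CPM. Cd68, a lysosomal protein, accounted for 5.47 CPM of the leukocyte sum. Krt5 had 0 reads in all 6 libraries and Krt14 had 1, so most of the keratinocyte sum came from the 0.5 reads added to each count, which give a gene without reads 0.0255 CPM.

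To compare genes with each other, levels were divided by the length of the union of all exons in GENCODE release M21 and are given as CPM per kilobase. On this scale Txnip stood highest with 56.5 CPM per kilobase and Mxd4 lowest with 0.914 CPM per kilobase, a 61.8-fold span. The order between them was Max, Mlx, Mxi1, Myc, Mlxip, Mxd1, Mnt and Arrdc4. Neighbours in the middle lay close, since the level of Myc exceeded that of Mlxip by only 0.14 and that of Mlxip exceeded that of Mxd1 by only 0.08 on the log2 scale per kilobase. Without a spread over libraries it could not be said which neighbours differ. The first and second places (Txnip, Max) and the last and next to last (Mxd4, Arrdc4) were the same with 3 other definitions of gene length, but the 6 places between them were not.

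**Figure D2:**
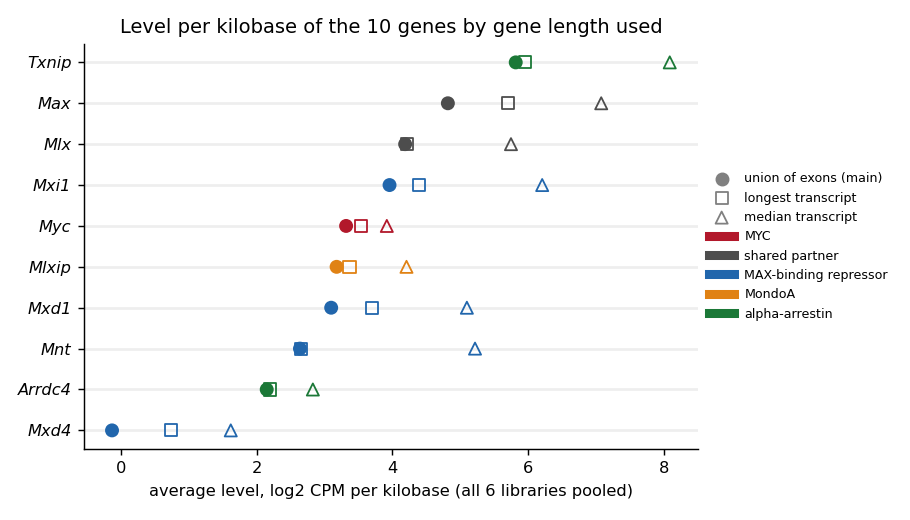
Average level of the 10 genes in log2 CPM per kilobase, with 1 row per gene and colours for the role of its protein. Circles use the union of exons (from -0.13 for Mxd4 to 5.82 for Txnip), squares the longest transcript and triangles the median transcript. Error bars are absent because the average carries no spread over libraries and the columns of the authors' comparison were not used.

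Myc, the activator that names the network, averaged 4.76 log2 CPM or 27.1 CPM (533 reads per library). It lies on chromosome 15 from 61985391 to 61990374 on the plus strand of GRCm38 and has 4 merged exons. At 9.98 CPM per kilobase it stood above 75.8% of the genes with reads. The geometric means of the other MYC genes lay far below 1 CPM. Mycn, the neuroblastoma oncogene, averaged 0.0435 CPM, and its average corresponds to between 4 and 12 reads over all 6 libraries together. Mycl averaged 0.0692 CPM, which corresponds to between 6 and 202 reads, so more reads in a single library could not be told from few reads in several. Of the 3 MYC genes, Myc alone had a geometric mean of at least 1 CPM. For Mycl, the range of reads leaves an arithmetic mean above 1 CPM possible.

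Max, the partner that MYC and its antagonists share, was the second most abundant of the 10 per length, with an average of 6.67 log2 CPM (102 CPM) and 28.3 CPM per kilobase. Its level per kilobase was 2.84 times that of Myc, and 4.52 times with the longest transcript, 4.70 times with the basic set and 8.96 times with the median transcript as length. The gene lies on chromosome 12 from 76937269 to 76962201 on the minus strand. Its union of exons, 3598 bases, exceeds the longest of its 7 annotated transcripts, 1942 bases, and the level of Max per kilobase therefore depended on the length used. With the exons of the GENCODE basic set alone it was 5.70 log2 CPM per kilobase instead of 4.82.

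Of the 4 repressors that pair with MAX, Mxi1 was the most abundant with each of the 4 gene lengths. It averaged 6.73 log2 CPM (106 CPM) and 15.6 CPM per kilobase, which was 1.56 times the level of Myc on that scale. With the basic set, the longest transcript and the median transcript it was 1.44, 1.82 and 4.89 times that level. Mxi1 lies on chromosome 19 from 53310518 to 53375810, and its 3 promoter windows correspond to alternative starts, which the table does not separate. Mxd1, a repressor known to rise as cells leave the cycle and differentiate, averaged 5.92 log2 CPM (60.6 CPM, 8.57 CPM per kilobase). Mnt, a broadly expressed MAX partner that opposes MYC in growing cells, averaged 4.85 log2 CPM (28.9 CPM, 6.24 CPM per kilobase).

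Mxd4 was the weakest of the 10 genes on every scale, with 2.95 log2 CPM (7.75 CPM) and 0.914 CPM per kilobase. Its union of exons, 8483 bases, was the longest of the 10, and with the longest transcript its level rose from -0.13 to 0.74 log2 CPM per kilobase without a change of place. Mxd3, an MXD gene that is not among the 10, averaged 7.36 CPM (3.11 CPM per kilobase). Mga, which encodes a large MAX partner found in a repressive polycomb complex, averaged 147 CPM. With the union of exons as length it had 9.55 CPM per kilobase, close to Myc. This closeness was not examined for Mga alone with other lengths. With the median transcript Myc had 15.1 CPM per kilobase. There the sum of Myc and the 4 repressors was 164, and 239 with Mycn, Mycl, Mga and Mxd3 added.

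Summed over Mxd1, Mxd4, Mxi1 and Mnt, the repressors reached 31.3 CPM per kilobase, 3.14 times the level of Myc. This ratio stayed above 1 with the other lengths, at 3.63 with the longest transcript, 3.36 with the basic set and 9.83 with the median transcript. The transcripts of Myc and the 4 repressors together amounted to 41.3 CPM per kilobase against 28.3 for Max, a ratio of 1.46. That ratio of 5 genes was 0.929 with the basic set. With the other MAX partners listed, Mycn, Mycl, Mga and Mxd3, added to the sum, it was 1.91, and 1.24 with the basic set, 1.31 with the longest transcript and 1.76 with the median transcript. These are sums of RNA levels, and protein was not measured here.

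On the nutrient-sensing side, Mlx averaged 5.19 log2 CPM (36.6 CPM) and 18.3 CPM per kilobase, the third highest of the 10. Mlx, on chromosome 11 from 101087277 to 101092207, shares 385 exonic bases, 19.3% of its union, with Psmc3ip on the opposite strand. Psmc3ip, which encodes a meiotic recombination factor, averaged 17.3 CPM. The libraries were made with a directional kit, which marks the strand of each read, but the sources used here do not state whether counting used it. Without strand in the counting, reads from the shared bases could not be told apart between Mlx and its neighbour. Mlxip, which encodes MondoA, averaged 6.24 log2 CPM (75.4 CPM), above Mlx before division by length. Because Mlxip has 8326 exonic bases against 1999 for Mlx, the order turned per kilobase, where Mlxip had 9.05 CPM, 0.495 times the level of Mlx. Its paralog Mlxipl, which encodes ChREBP of liver and fat, averaged 0.0510 CPM which corresponds to between 8 and 32 reads over all 6 libraries together. Of both Mondo genes, Mlxip alone averaged at least 1 CPM.

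Txnip was the most abundant of the 10 genes with each length and also without division by length. It averaged 7.46 log2 CPM (176 CPM, 3464 reads per library) and 56.5 CPM per kilobase, above 96.4% of the genes with reads. TXNIP binds and inhibits thioredoxin and promotes internalisation of glucose transporters. The gene lies on chromosome 3 from 96557957 to 96561883 on the plus strand. An antisense gene, Gm15441, covers 606 of its exonic bases (19.4%) and averaged 0.115 CPM. As for Mlx, reads from the shared bases could not be told apart if counting ignored strand. The low average of Gm15441 therefore does not show that the count of Txnip was unaffected. Arrdc4, the other alpha-arrestin of the set and like Txnip a known MondoA target, averaged 4.16 log2 CPM (17.9 CPM) and 4.43 CPM per kilobase. Txnip exceeded Arrdc4 by 12.7-fold per kilobase, and by 13.6-fold, 14.1-fold and 38.4-fold with the other lengths.

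**Figure D3:**
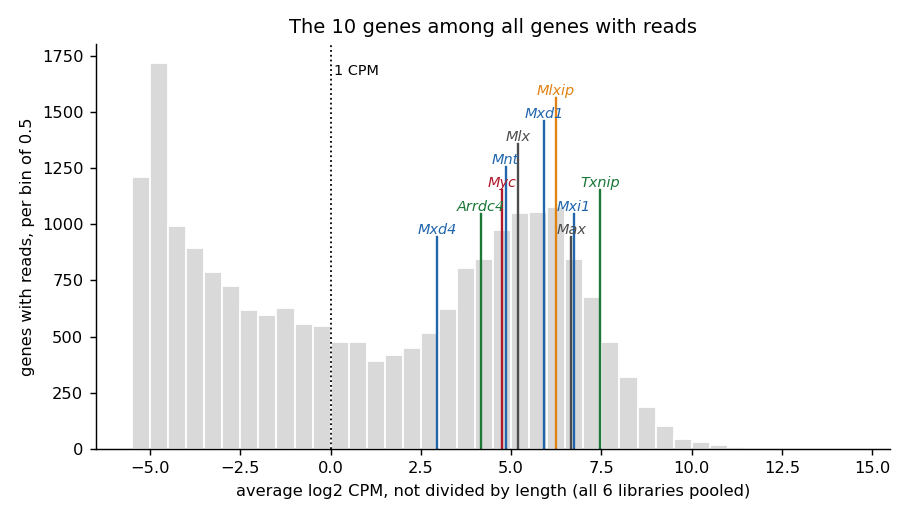
Histogram of average log2 CPM over the 21154 genes with reads, in bins of 0.5, with a coloured line at the level of each of the 10 genes and a dotted line at 1 CPM. All 10 lines lie to the right of 1 CPM, from Mxd4 at 2.95 to Txnip at 7.46.

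The set as a whole sat in the upper part of the range without being extreme. The median level of the 10 genes was 3.25 log2 CPM per kilobase, against 2.86 for the genes with at least 1 CPM. Their percentiles per kilobase among the genes with reads ran from 46.4 (Mxd4) to 96.4 (Txnip) with a median of 74.9, and among genes with at least 1 CPM from 11.3 to 94.0 with a median of 58.0. These places are a description, and nothing particular to the network is read from them.

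The genes that work with the network were also expressed. Of 15 partners and turnover factors of MYC, all 15 averaged at least 1 CPM, with a median of 4.04 log2 CPM per kilobase. They ran from Usp28, a deubiquitinase of MYC, at 2.36 to Ruvbl1, an ATPase of chromatin remodelling complexes, at 6.14 log2 CPM per kilobase. All 11 components of the SIN3 and histone deacetylase corepressor that serves the MXD proteins and MNT did so too, with a median of 4.63 log2 CPM per kilobase. The highest of them was Rbbp7, a histone-binding subunit, at 6.49 log2 CPM per kilobase. With the union of exons as length, the median levels of both lists lay above that of the 10 genes themselves, 3.25. The median of the 10 genes was 5.16 with the median transcript, and the lists were not measured with other lengths.

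Genes listed as MYC targets, whose place in the list was not checked gene by gene, were mostly abundant. Of the 15 listed genes, 14 averaged at least 1 CPM, and the list had a median of 5.60 log2 CPM per kilobase. The highest was Npm1, a nucleolar chaperone of ribosome assembly, at 9.23, and the lowest Tert, the telomerase catalytic subunit, at -2.97 log2 CPM per kilobase and 0.733 CPM. Ornithine decarboxylase, Odc1, averaged 704 CPM and lactate dehydrogenase, Ldha, 1308 CPM. Their levels are no measure of MYC activity, since many other factors act on these genes.

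Other target genes of MondoA and of the glucose response were uneven. Hk2, which encodes the glycolytic enzyme hexokinase 2, averaged 343 CPM. With the union of exons as length it had 5.85 log2 CPM per kilobase, beside 5.82 for Txnip. Arrdc3, an alpha-arrestin, averaged 100 CPM and stood per kilobase above 83.5% of the genes with reads, against 62.3% for Arrdc4. Pfkfb3, a regulator of glycolysis, had 34.3 CPM, and Pklr, the pyruvate kinase of liver and red cells and a known target of ChREBP, 0.0765 CPM, which corresponds to between 9 and 367 reads over all 6 libraries together. Among the 6 other arrestins listed, 5 had at least 1 CPM, with a median of 1.23 log2 CPM per kilobase. The highest was Arrdc3 and the lowest Arrdc5, at -1.80 log2 CPM per kilobase.

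The genes of the thioredoxin system that TXNIP acts on spanned a wide range of levels. With the union of exons as length, Txn1, thioredoxin itself, had 179 CPM per kilobase (188 CPM). Txnrd1, its cytosolic reductase, had 82.7 CPM per kilobase (586 CPM). Both lay above Txnip at 56.5 CPM per kilobase. Txn2, the mitochondrial thioredoxin, had 23.7 CPM per kilobase, and the reductases Txnrd3 and Txnrd2 had 15.6 and 4.90, all below Txnip. The order with other lengths was not examined for this list. Txnip itself had 62.4 CPM per kilobase with the longest transcript and 273 with the median transcript. Slc2a1, the glucose transporter GLUT1, had 14.5 CPM per kilobase. Nlrp3, the inflammasome sensor to which TXNIP has been linked, averaged only 0.180 CPM. Of the 8 genes of this list, 7 had at least 1 CPM.

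Other leucine zipper factors that bind E-boxes were present as well. Mitf, the master regulator of the melanocyte lineage, averaged 288 CPM and 46.5 CPM per kilobase, above each of the 10 genes but Txnip with the union of exons as length. Of the 9 factors listed, 8 had at least 1 CPM, with a median of 2.57 log2 CPM per kilobase. Tfec, a MITF relative, was the exception with 0.0732 CPM, which corresponds to between 7 and 283 reads over all 6 libraries together. Usf1 and Usf2, ubiquitous E-box factors, had 8.33 and 10.8 CPM per kilobase, beside 9.98 for Myc, all with the union of exons as length.

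**Figure D4:**
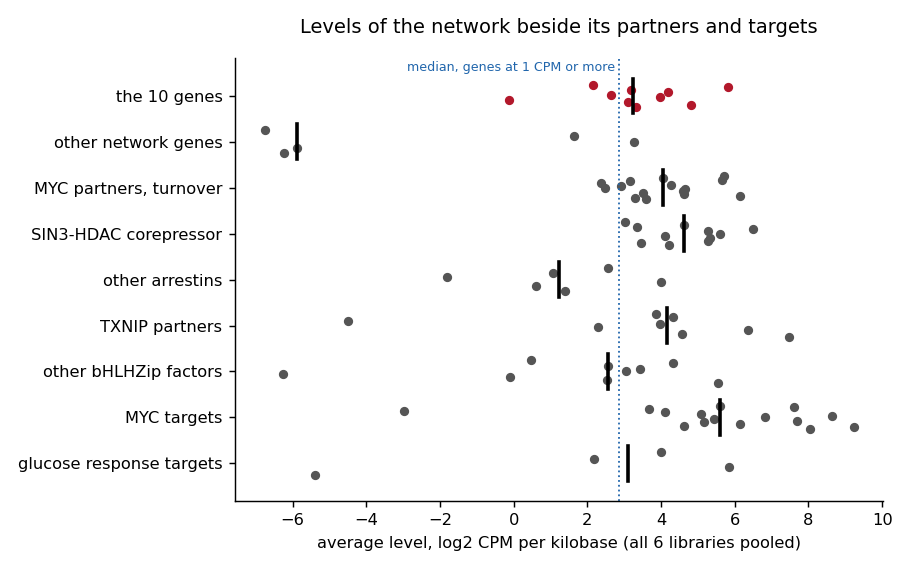
Average level in log2 CPM per kilobase of the 10 genes (red) and of 8 lists of related genes (grey), with 1 point per gene and a black bar at the median of each list. The dotted line is the median of genes with at least 1 CPM, 2.86. All levels use the union of exons as length. The 10 genes have a median of 3.25. The lists of MYC targets (5.60) and of SIN3 and histone deacetylase components (4.63) lie higher. So do those of TXNIP partners (4.15) and of MYC partners and turnover (4.04), and the other lists lie lower.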

How the data were processed

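According to the methods, the authors aligned reads to mm10 with HISAT2 (2.1.0), counted them per gene with featureCounts (2.1.1) and fitted limma-voom (3.58.1). The deposited table holds, for each gene, the authors' average log2 CPM over all 6 libraries, with 0.5 reads added to each count. It also holds 5 columns of the authors' own comparison of the oils (fold change, statistic, p-values and log odds), which were not used here, so OZO and OLO were not compared. The planned edgeR and limma tests needed values of single libraries and were not run.

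Genes sharing the lowest average had no reads, and this average gave the library size. Read totals for low genes were solved from averages within a tolerance of 0.001. Lengths came from GENCODE M21 (GRCm38) for 23882 genes. Percentiles used 19227 genes with reads and a length. The network genes and lists were chosen with earlier results of these data known. For each list the highest and lowest gene per kilobase were named, except 1 that is not reported here, and others were chosen after their values were seen. Promoter sequences came from RefSeq (GRCm38.p6). The calculation was tested on simulated counts. Python 3.11.15, numpy 2.4.6, pandas 2.3.3 and matplotlib 3.10.9 were used.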

Additional observations from a re-analysis of the deposited data

How the results depend on the processing

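The 10 genes all averaged at least 1 CPM, and did so with limits of 0.5 and 2 CPM. Their median level of 3.25 log2 CPM per kilobase became 3.62 with the longest transcript, 5.16 with the median transcript and 3.58 with the exons of the basic set, the last chosen after the data were seen. Shorter lengths raise every level by construction. The shift from a change of length is fixed by the annotation, so setting it beside counting error shows only its size. It exceeded counting error for 7 of the 10 genes with the longest transcript and for 10 with the median transcript. Subtracting the 0.5 added reads moved none beyond counting error. The median percentile, 74.9 among genes with reads, was 58.0 among genes with at least 1 CPM, 79.8 among all genes and 77.6 without division by length. Ratios were compared across lengths after the data were seen. The sum of Myc, Mxd1, Mxd4, Mxi1 and Mnt over Max was 1.02 with the longest transcript, 1.21 with the median transcript and 0.929 with the basic set in place of 1.46, and 1.91 with Mycn, Mycl, Mga and Mxd3 added. The sum of Mlxip, Mxd1, Mxd4 and Mnt over Mlx was 1.35, and 1.68, 1.73 and 1.66 with those lengths. The genes with an E-box numbered 5 with CACGTG and 7 with CANNTG.

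No paired analysis was possible because each gene has 1 average over all 6 libraries. For the same reason other count tests, a filter on counts and leaving out a replicate were not run. Depth limits Mycn (4 to 12 reads) and Mlxipl (8 to 32), and the average of Mycl leaves 6 to 202 reads possible.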
